A study of Mus musculus with 18 samples.

Results

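Basal keratinocytes of mosaic DKO* mice whose reporter had not recombined, labeled as non-mutant (b-KC Tom), were compared with basal keratinocytes of control mice (b-KC Co). The comparison uses 6 of the 18 libraries of the series, chosen by their labels, with 3 libraries of DKO* mice 814, 815 and 817 against 3 of control mice 810, 825 and 828. It asks what non-mutant keratinocytes express next to mutant neighbors, and most of the account below is about the genes that were lower in them. The study induced a psoriasis-like disease by deleting both genes in keratinocytes and sequenced poly(A) RNA of sorted ear cells as bulge hair follicle stem cells (HF-SCs) and as b-KCs.

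The DKO* mice carried floxed JunB and c-Jun alleles, the K5-Cre-ERT transgene, in which the keratin 5 promoter drives a tamoxifen-dependent Cre, and the mT/mG reporter, which switches from Tomato to GFP once Cre has acted. Control mice carried the same transgene and reporter with wild-type or heterozygous floxed alleles and received tamoxifen as well. The mice were 8 weeks old, of mixed background and of both sexes, were given 4 daily injections of 2 mg tamoxifen and were analyzed on day 7. Each b-KC library came from the ear epidermis of 1 mouse, as live cells with high CD49f (integrin alpha6). The study names the b-KC sort by this marker alone and the HF-SC sort by CD34 as well. It describes a CD45-negative, CD34-negative gate for a count of epidermal cells. The Tom fraction is the unrecombined one, so a cell that never expressed keratin 5 would also be Tom, and the labels name no color gate for the control b-KCs. The 3 mice of a group are separate animals. The spread behind each p-value is pooled over all 18 libraries, where libraries of the same mouse were counted as independent. A fit with mouse as a block is given below.

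Keratinocytes of the basal layer rest on the basement membrane, divide, and give rise to suprabasal cells that switch from the keratins 5 and 14 to keratins 1 and 10 and later build the cornified envelope and its lipids. Jun, Junb and Fos proteins form the dimeric transcription factor AP-1, which binds the DNA motif TGANTCA and takes part in keratinocyte differentiation and stress responses. In the psoriatic epidermis, calprotectin (S100a8 and S100a9) and small proline-rich proteins are abundant.

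The values are FPKM (read fragments scaled by transcript length and by the mapped reads of the library). Fold changes and tests are on log2(FPKM + 1), where a change in a weakly expressed gene comes out too small. Of 23951 genes, 12751 reached 1 FPKM in at least 3 of the 18 libraries and were tested with limma, with p-values adjusted by the Benjamini-Hochberg method over all of them. A gene passed at an adjusted p-value under 0.01 and was called if its log2 fold change was also at least 2 in either direction. From here on, values of 3 Co libraries follow the mouse order 810, 825 and 828, and values of 3 Tom or GFP libraries the order 814, 815 and 817. The implied depth of the 6 libraries was 19680000 to 23130000 reads, at which 3 reads on a transcript of 1 kb are worth 0.130 to 0.152 FPKM, counting error only. S100a8 and S100a9 took 3.99% to 10.7% of the summed FPKM in Tom and at most 0.0207% in Co. Each group held 1 mouse with Y-linked transcripts and 2 without.

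The targeted genes were lower in Tom than in Co although these cells are labeled as non-mutant. Jun, at chr4:94715725-94718913 on the minus strand of NCBI37/mm9, had 876, 979.7 and 1000.0 FPKM in Co, 163, 229 and 400.4 in Tom and 53.9, 65.4 and 29.6 in the mutant b-KC GFP fraction of the same mice. Every Tom library lay below every Co library and above every GFP library. The change from Co was -1.94 for Jun (adjusted p = 0.00114, limma) and -1.27 for Junb (adjusted p = 0.00308, limma), and Tom exceeded GFP by 2.36 for Jun (adjusted p = 0.0066, limma) and by 2.42 for Junb (adjusted p = 8.58e-04, limma). Junb did not pass as lower without Co of mouse 825 or 828 or Tom of mouse 814.

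Among basal markers, Krt5 had 5081, 5529.5 and 4928 FPKM in Co and 5198, 4093 and 7318 in Tom (0.06, adjusted p = 0.897, limma), Itga6 had 132, 159.6 and 140.4 and 119, 101 and 149.5, and Trp63 had 239, 259.6 and 311 and 212, 134 and 218. The groups overlapped for Krt5 and Itga6, and 0 of the 8 tested basal keratinocyte markers passed (limma, 4 lower and 0 higher at an unadjusted p under 0.05). Without Krt14, which was listed at 0 in 2 Tom libraries, 6 of the other 7 were below 0, their median on the log2 scale was -0.54, and 4 were lower without overlap, beside 34.0% of all genes. Col17a1, a hemidesmosome collagen, had 652, 732 and 754 FPKM in Co and 185, 225 and 439 in Tom, and the laminin genes Lamb3 (140.1, 152 and 156 and 71.8, 72.4 and 105) and Lama3 (18.3, 20.6 and 22.6 and 7.96, 6.21 and 10.6) did not overlap either. Krt14 was listed at 0, 11448 and 0 FPKM in Tom, against 9940.5, 10559.6 and 9817 in Co, so no fold change is given for it. The summed FPKM of 9 leukocyte markers was 0.868 to 1.28 in Co and 8.17 to 24.7 in Tom, that of 18 endothelial markers 3.15 to 4.85 and 6.87 to 14.3, and that of 9 Langerhans cell and macrophage markers 1.26 to 1.42 and 4.99 to 6.52, most of it from Cd68 (1.19, 1.08 and 0.879 in Co, 3.96, 5.51 and 2.97 in Tom), with the Langerhans cell marker Cd207 under 1 FPKM in each library. The 12 fibroblast markers summed to 13.3 to 17.2 FPKM in Co and 27.5 to 37.7 in Tom, most of the latter from Fbln1 (8.63, 5.6 and 5.66 in Co, 25.3, 35.6 and 24.6 in Tom), whereas 6 of the 8 tested were below 0, among them Dcn (4.2, 4.09 and 2.93 and 1.63, 1.42 and 2.47) and Col6a1 (3.19, 3.23 and 3.29 and 0.178, 0.357 and 1.07). The 9 neutrophil markers summed to 1.86 to 1.97 FPKM in Co and 8.53 to 10.9 in Tom, nearly all of it from the chemokine receptor gene Cxcr2 (1.5, 1.52 and 1.42 in Co, 10.3, 8.28 and 9.55 in Tom), whereas Elane was at 0 in all 6 libraries. Srgn, which is expressed in leukocytes, was the only leukocyte marker among the 7 tested that passed, at 0.0919, 0.188 and 0.157 FPKM in Co and 22.2, 18.9 and 3.12 in Tom, and its call is lost without the Tom library of mouse 814 or 815. The markers of T cells summed to 12.4 to 17.1 FPKM in Co and 10.0 to 43.2 in Tom, and 0 of the 2 tested passed. Most of this sum came from Thy1 (16.1, 11.5 and 13.7 in Co, 8.76, 19.6 and 41.9 in Tom). Cd3d, Cd3e, Cd3g and Cd247 stayed under 1 FPKM in each library. Merkel cell markers summed to 0.390 to 1.80 FPKM in Co and 0.481 to 0.784 in Tom.

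Tom differed from Co in many genes. In all, 192 genes (1.51% of those tested) were called lower and 159 (1.25%) were called higher, whereas at the p-value threshold alone 1955 (15.3%) were lower and 1967 (15.4%) were higher. These 2 counts rest on all 6 libraries, and were 1286 (10.1%) and 1288 (10.1%) without Co of mouse 828 and 10.6% to 13.5% of all genes without any 1 of the others. Lowered genes made up 54.7% of the calls. The median log2 fold change over all genes tested was -0.02. In each of the 351 called genes the Tom libraries did not overlap the Co libraries, beside 34.0% of all genes tested that were lower and 31.6% that were higher without overlap. The genes called lower went from a median of 26.9 FPKM in Co to 3.61 in Tom, had a median log2 fold change of -2.39, and 3 of them were listed at 0 in at least 1 Tom library. The genes called higher went from 1.39 to 31.8 FPKM. Gene lists are given below by how many members passed in each direction, and where 0 of a list passed in a direction, 3 or fewer had an unadjusted p under 0.05 in it (limma), except 5 late cornified envelope genes in the higher and 4 basal keratinocyte markers in the lower direction. Just inside the fold threshold lay Gpha2 (-2.0, not passing without Co of mouse 825 or 828 or Tom of mouse 814 or 815) and Slc2a12 (-2.02), and just outside it lay Acox2 and Traf5, which had values of -2.0 after rounding.

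**Figure D1:**
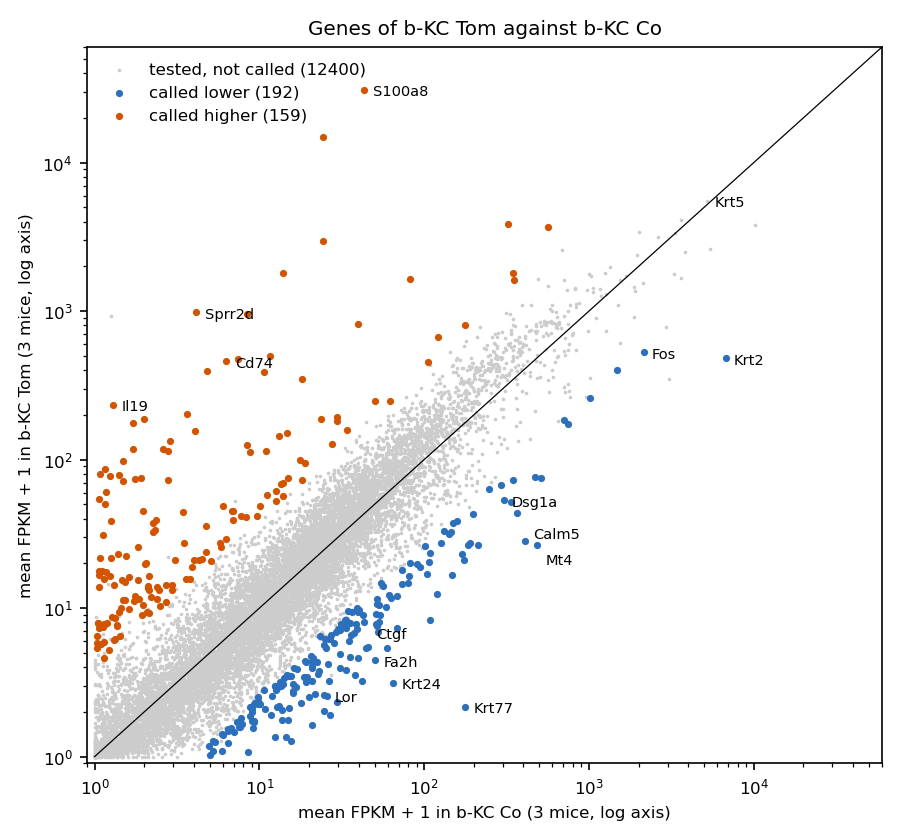
Mean FPKM + 1 of each of the 12751 tested genes in b-KC Co (horizontal log axis, 3 mice) and b-KC Tom (vertical log axis, 3 mice), with called genes in color and the line of equal values. The 192 genes called lower lie below the line up to Krt2, the most abundant of them, and the 159 called higher reach far above it, with S100a8 at the top.

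Krt77, a type II keratin of differentiated epidermis, fell most, and its promoter is shown beside those of 2 other lowered differentiation genes and of a raised one because these 4 genes mark the contrast between the lost and the gained part of the differentiation program. The sequences are the 250 bases before the transcription start, from RefSeq on GRCm38.p6, 5′ to 3′ on the strand of the gene, with a match to the AP-1 motif TGANTCA in capitals. They come from chr15:101869706-101869955 (minus strand, no match), chr3:92083143-92083392 (minus strand, match starting 48 bases before the start), chr3:93197023-93197272 (plus strand, 69 bases before) and chr3:92338890-92339139 (plus strand, 193 bases before).
Krt77: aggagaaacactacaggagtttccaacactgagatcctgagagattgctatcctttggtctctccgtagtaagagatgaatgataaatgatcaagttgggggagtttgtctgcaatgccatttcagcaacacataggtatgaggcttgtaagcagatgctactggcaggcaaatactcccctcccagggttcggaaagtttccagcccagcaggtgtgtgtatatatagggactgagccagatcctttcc
Lor: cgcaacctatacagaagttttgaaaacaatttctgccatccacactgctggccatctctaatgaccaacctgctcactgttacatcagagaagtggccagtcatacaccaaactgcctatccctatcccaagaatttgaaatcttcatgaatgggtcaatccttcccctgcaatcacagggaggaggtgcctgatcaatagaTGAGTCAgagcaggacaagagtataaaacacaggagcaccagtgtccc
Flg2: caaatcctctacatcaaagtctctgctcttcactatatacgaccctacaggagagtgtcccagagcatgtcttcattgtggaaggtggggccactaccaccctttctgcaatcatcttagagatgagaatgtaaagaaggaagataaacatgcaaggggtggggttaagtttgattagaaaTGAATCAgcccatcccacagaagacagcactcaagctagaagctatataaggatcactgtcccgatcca
Sprr2d: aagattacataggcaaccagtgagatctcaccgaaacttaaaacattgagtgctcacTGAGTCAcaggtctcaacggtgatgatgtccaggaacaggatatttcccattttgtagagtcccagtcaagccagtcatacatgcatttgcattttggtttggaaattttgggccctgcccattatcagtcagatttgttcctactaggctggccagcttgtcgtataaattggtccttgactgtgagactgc
RefSeq promoters were matched for 9490 of the 12751 genes. TGANTCA, searched as these letters on both strands, was present in 13 of 146 promoters of genes called lower (8.90%), in 20 of 109 of genes called higher (18.3%, several of them near-identical Sprr2 copies) and in 4.64% of all 9490. CACGTG, the letters of the E-box, was in 6.16%, 3.67% and 8.47% in the same order. The 13 lowered genes with TGANTCA include Lor, Flg2, Scel, Klf9, Serpinb7 and Cyp4b1. Krt2, Krt24, Mt4, Calm5, Krt78 and Cdsn, which fell more than Flg2, had no match. The printed promoters are therefore not typical of the lowered genes in this respect. A match to letters is a description and not a binding site, and the absence of a match says nothing about the factor.

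The program of suprabasal differentiation was split. Of 29 tested genes, 11 were lower and 1 was higher at an adjusted p-value under 0.01, beside 15.3% lower and 15.4% higher over all genes, 6 were called lower, and the median was -0.88 beside -0.02 over all genes. Krt77, at chr15:101689163-101700136 on the minus strand of NCBI37/mm9, had 221, 149 and 161 FPKM in Co and 1.04, 0.767 and 1.65 in Tom, a change of -6.37 on the log2 scale (SE 0.48, Benjamini-Hochberg adjusted p = 2.57e-07, limma). No Tom library came near a Co library, and the GFP fraction lay in between with 23.9, 20.3 and 8.65 FPKM, from which Tom differed by -3.02 (adjusted p = 0.00369, limma). Krt2, a keratin of the upper layers in the same cluster (chr15:101641120-101648600, minus strand), had 7268, 6623 and 6316 FPKM in Co and 93.1, 114 and 1228 in Tom. The groups did not overlap, but mouse 817 stood well above the other Tom mice, and the estimate was broad at -4.83 (standard error 1.23, adjusted p = 0.00489, limma) and did not pass without any 1 of the 3 Co libraries or without Tom of mouse 814 or 815.

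Proteins of the cornified envelope and of the desmosome were among the lowered genes. Lor, which encodes loricrin, the main envelope protein, fell from 19.3, 25.8 and 28.8 FPKM in Co to 0.345, 1.85 and 2.5 in Tom, a change of -3.41 on the log2 scale (SE 0.50, Benjamini-Hochberg adjusted p = 8.06e-05, limma). Cdsn, which encodes the corneodesmosome protein corneodesmosin, fell from 42.4, 26 and 21.2 to 1.32, 4.11 and 3.47 FPKM. Dsg1a, a desmosomal cadherin of the upper layers, fell from 284, 331 and 294 to 46.1, 48.1 and 62.1 FPKM. For all 3 genes the highest Tom value was under the lowest Co value by a wide margin, and the log2 fold changes of Cdsn and Dsg1a were -2.98 (adjusted p = 7.29e-04, limma) and -2.53 (adjusted p = 3.93e-05, limma). Flg2, a filaggrin-like gene, went from 3.6, 4.39 and 4.1 FPKM to 0, 0.0198 and 0.0527, and Lce1m of the late cornified envelope family went from 8.3, 16.2 and 19.2 to 0.0538, 0.405 and 0.346 FPKM. Krt10, the partner of Krt1, was lower without reaching the fold threshold, at 3418, 2579.9 and 2743 FPKM in Co and 813, 798 and 717 in Tom (-1.9, adjusted p = 5.43e-04, limma). The same held for the envelope plakin Ppl (-1.8) and for Sbsn (-1.84), while Evpl (-1.15) did not pass when any 1 of the 6 libraries was left out, nor Grhl1 (-0.95) without any 1 of them other than Co of mouse 828.

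Other genes of the same program did not pass. Krt1 had 1073, 953 and 909 FPKM in Co and 2442, 1106 and 592 in Tom, so the groups overlapped, and Krtdap (3775, 3179 and 3009.9 against 3646, 3914 and 2503) and Dmkn (1852, 1629 and 1529 against 1740.01, 2081 and 1319) overlapped as well. Ivl, which encodes involucrin, had a difference of -0.70 with an adjusted p of 0.216 (limma) and Tgm3, a transglutaminase, one of 0.23 (adjusted p = 0.379, limma). Dsc2 was the list's only higher gene (1.69, adjusted p = 0.0012, limma). Of 21 late cornified envelope genes, Lce1m alone passed, and the paralogs of this family share reads and are uncertain. In libraries of sorted cells, fewer cells of a kind and less RNA per cell cannot be told apart, and Krt10 and Krt2 were abundant in the Co libraries although the sort was set for basal cells.

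**Figure D2:**
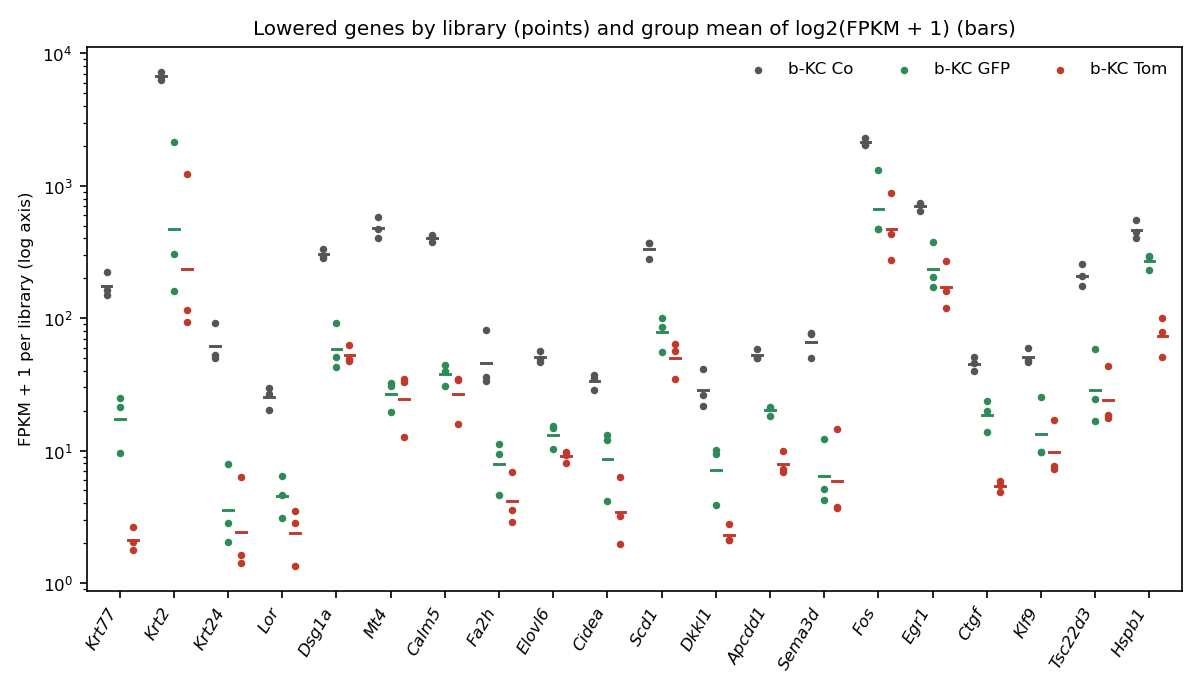
FPKM + 1 (log axis) of 20 lowered genes in each of the 9 b-KC libraries, with points for mice and a bar for the group mean of log2(FPKM + 1), for Co, GFP and Tom. Tom points lie below all Co points in each gene, and for Krt77, Ctgf and Hspb1 they also lie below all GFP points.

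Raised beside these were the small proline-rich genes, with a median of 5.40. Of 13 tested, 11 were higher and 0 lower, beside 15.4% and 15.3% of all genes. Sprr2d had 5.5, 0.519 and 3.38 FPKM in Co and 1174, 1397 and 369.6 in Tom (7.92, adjusted p = 2.03e-06, limma). S100a9 had 34.2, 2.19 and 33.5 and 19438, 17342 and 7487 FPKM (9.76, adjusted p = 2.43e-06, limma). Both genes were far above Co in every Tom library, the library of mouse 817 being the lowest, and reads of the Sprr2 copies cannot be told apart fully. The stress keratins were higher in 3 of 5 cases and 0 were lower, with a median of 4.25. The stefin A cluster was higher in 8 of 9, with a median of 5.18. Both counts stand beside the same 15.4% of all genes.

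Several calcium-binding and small proteins of the differentiating layers, most of which stand in none of the lists, were also lowered, and those beyond the 20 largest changes were chosen after their values were seen. Mt4, a metallothionein of stratified epithelia, fell from 582, 403 and 468 FPKM to 11.6, 33.8 and 31.8 (-4.3, adjusted p = 6.15e-06, limma). Calm5, a calmodulin-like gene, fell from 417, 424 and 376 to 14.9, 33.1 and 33.8 FPKM (-3.93, adjusted p = 1.03e-07, limma). Their Co and Tom libraries were separated by more than 10-fold in every pairing, whereas the GFP fraction had values close to Tom (18.6, 31.4 and 29.8 for Mt4 and 29.7, 43.4 and 38.9 for Calm5). Krt78 (-3.81), Krt80 (-2.25), Krt23 (-2.97), Kprp (-2.9, not passing without Tom of mouse 814), Scel (-2.18), which encodes sciellin of the cornified envelope, and the protease genes and inhibitors Klk5 (-3.23), Spink5 (-2.08) and Cst6 (-2.51) were called lower too. Spink5 encodes LEKTI, an inhibitor of Klk5, and both were lower in Tom, with 31.7, 21.5 and 17.2 FPKM of Klk5 in Co against 0.838, 2.37 and 1.63 in Tom and 30.03, 26.2 and 19.7 FPKM of Spink5 against 5.89, 5.63 and 4.09.

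Lipid genes of the barrier made up a further group. Of 39 genes of ceramide and barrier lipid metabolism, 12 were lower and 5 higher, beside 15.3% and 15.4% of all genes, with 7 called lower, 1 called higher and a median of -0.52. Fa2h, at chr8:113869035-113917724 on the minus strand, which hydroxylates the fatty acids of ceramides, had 80.7, 34.8 and 32.8 FPKM in Co and 2.54, 5.88 and 1.91 in Tom, a change of -3.48 on the log2 scale (SE 0.77, Benjamini-Hochberg adjusted p = 0.00193, limma). The Co library of mouse 810 held more than the other Co libraries, and without it the gene no longer passed, at -3.07. Elovl6, which elongates fatty acids, fell from 55.9, 48.3 and 45.7 to 8.26, 8.82 and 7.1 FPKM (-2.49, adjusted p = 1.36e-05, limma), Acer1, an alkaline ceramidase, from 153, 146 and 125 to 32.8, 35.5 and 24 (-2.17, adjusted p = 4.80e-06, limma), and Acsbg1, an acyl-CoA synthetase, from 149, 177 and 176 to 16.4, 25.5 and 24 (-2.9, adjusted p = 1.60e-06, limma). These 3 genes had tight groups in which the lowest Co value was more than 3 times the highest Tom value. Cers4, a ceramide synthase, was called as well (-2.97). Elovl3 (-2.93) and the lipoxygenase Alox12e (-2.91) were called with adjusted p-values of 0.00856 and 0.00302 (limma), and Elovl3 did not pass when any 1 of the 6 libraries was left out, nor Alox12e without Co of mouse 825 or 828 or Tom of mouse 817.

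Among the 5 higher genes, the desaturase Degs1 was higher by 1.12, with 190.1, 193 and 159 FPKM in Co and 425, 475 and 297 in Tom, and the synthase Cers2 by 1.15, whereas Sptlc3, a subunit of serine palmitoyltransferase, was lower (-1.82). Alox8, a lipoxygenase, was called higher (4.5), with 0.75, 0.904 and 1.23 FPKM in Co and 49, 50.9 and 32 in Tom. Cers3 (0.79) did not pass without any 1 library other than Tom of mouse 817, nor Sptlc2 (1.02) without Co of mouse 828 or Tom of mouse 814 or 815, and the 5 higher genes were 3 when Co of mouse 828 or Tom of mouse 814 or 815 was left out.

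Of 20 tested genes of sebaceous lipid metabolism, 13 were lower and 2 higher, beside 15.3% and 15.4% of all genes. Of the 20, 6 were called lower, beside 1.51% of all genes, and the median was -1.68. Scd1, a stearoyl-CoA desaturase, fell from 366, 366 and 277 FPKM to 63.1, 55.5 and 33.5, a change of -2.74 on the log2 scale (SE 0.49, Benjamini-Hochberg adjusted p = 3.76e-04, limma). Cidea, a lipid droplet protein, fell from 36.3, 34.1 and 27.7 to 2.23, 5.31 and 0.955 FPKM (-3.29, adjusted p = 1.65e-04, limma), and Krt79, a keratin of the upper follicle and sebaceous duct, from 441, 322 and 338 to 39.2, 55.6 and 33.2 (-3.09, adjusted p = 4.38e-05, limma). Mouse 817 had the lowest Tom value of all 3 genes. Far2 (-2.69), Soat1 (-2.65), the melanocortin receptor Mc5r (-1.95) and Pparg (-1.84), a nuclear receptor of lipid cells, were lower, the last of them not without Co of mouse 810 or 825 or Tom of mouse 817. The higher members were Dgat1 (1.0, not passing without Tom of mouse 815) and Far1 (1.14), while Mgst1 and Apoc1 did not pass. The summed FPKM of 8 sebocyte markers was 503 to 746 in Co and 118 to 356 in Tom, and 6 of the 7 tested were lower (4 without Co of mouse 810 or 825 or Tom of mouse 817), so the list moved with the sebocyte markers, some of which it shares. The part of sebocytes in this result was not tested. Of 32 sterol and fatty acid synthesis genes, 2 were lower and 0 higher, with a median of -0.01.

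Markers of hair follicle stem cells and of the upper follicle were lower in 12 of 24 cases and higher in 0. Over all genes 15.3% were lower and 15.4% higher. The median of the list was -0.93. Krt24 had 90.6, 48.9 and 51.4 FPKM in Co and 0.615, 0.42 and 5.32 in Tom (-4.67, adjusted p = 1.97e-05, limma). Lgr6, a receptor that marks stem cells of the isthmus, had 31.3, 39.6 and 44.2 FPKM in Co and 5.09, 7.04 and 15 in Tom (-2.08, adjusted p = 0.00112, limma). Gata6 (-1.86), Sox9 (-1.45) and Lhx2 (-1.43) were lower, and so was Lgr5 (-1.23), which did not pass without Co of mouse 825 or 828 or Tom of mouse 815. The 9 bulge markers summed to 77.4 to 83.8 FPKM in Co and 29.9 to 38.3 in Tom, and 6 of them were lower (4 without Co of mouse 825). The study names the b-KC sort by CD49f alone, while its HF-SC sort took cells with CD34. The part of follicle cells in these values was not tested.

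**Figure D3:**
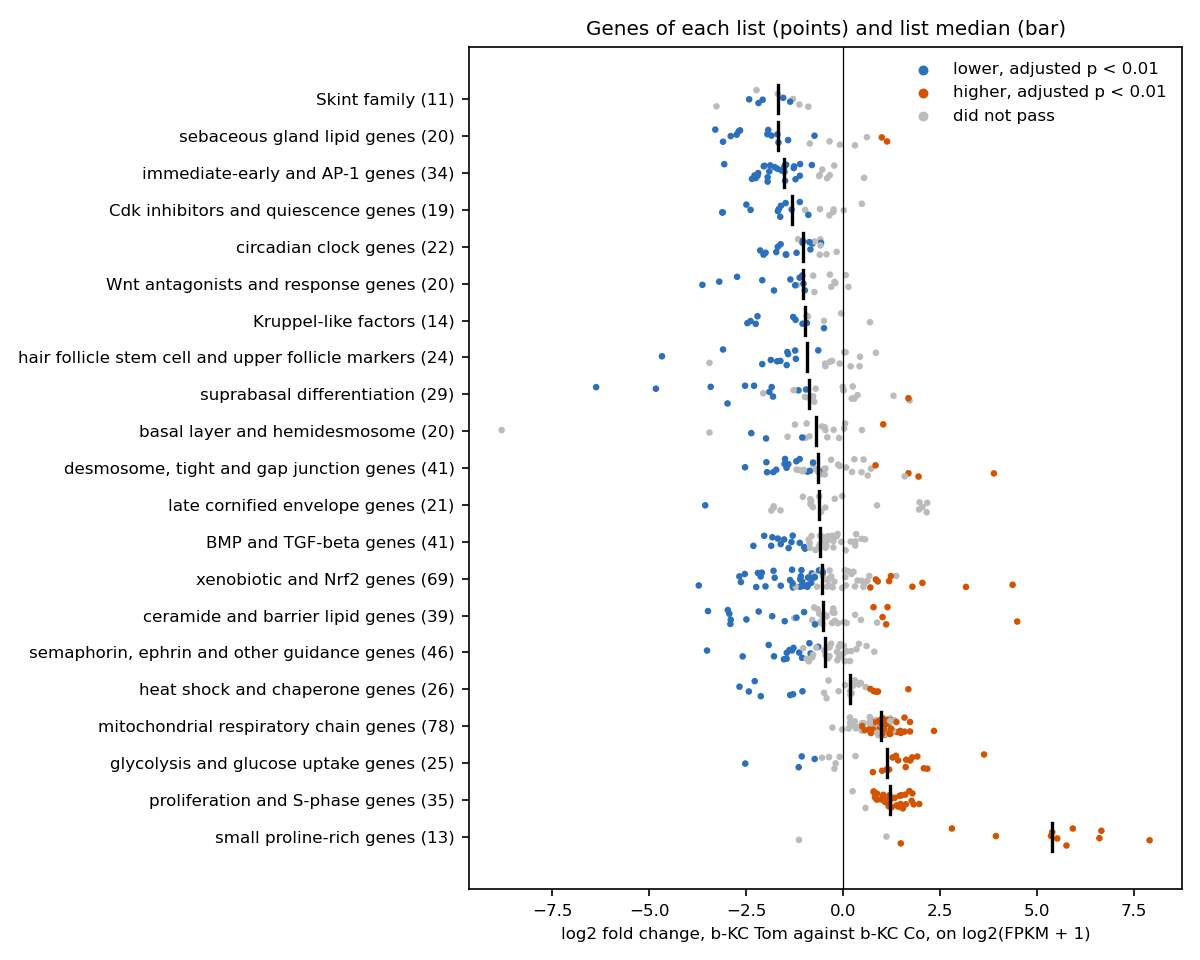
Log2 fold change of b-KC Tom against b-KC Co (horizontal axis) for every tested gene of 21 gene lists, with the number tested in parentheses, colored by whether the gene passed, and the list median as a bar. The sebaceous list has a median of -1.68 and the immediate-early list of -1.51, and the small proline-rich genes lie at the other end with a median of 5.40.

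Immediate-early and AP-1 genes were lower as a group in these cells, which are labeled as non-mutant. Of 34 tested, 27 were lower and 0 higher, beside 15.3% and 15.4% of all genes, with a median of -1.51. Of the 34, 8 were called lower, beside 1.51% of all genes. In 30 of the 34 the Tom libraries did not overlap Co, beside 34.0% of all genes lower without overlap. Fos had 2073, 2046 and 2308 FPKM in Co and 273, 429 and 879 in Tom, a change of -2.19 on the log2 scale (SE 0.40, Benjamini-Hochberg adjusted p = 5.14e-04, limma). Egr1, a zinc finger factor induced by growth signals, had 727, 648 and 737 and 119, 159 and 269.8 FPKM (-2.02, adjusted p = 2.70e-04, limma), and Atf3, a stress-induced factor, 1407, 1324 and 1674 and 188, 350.2 and 670.1 (-2.04, adjusted p = 6.62e-04, limma). In all 3 genes mouse 814 was the lowest and mouse 817 the highest of the Tom mice, and every Tom value was below every Co value. Fosb (-2.35), Nr4a1 (-2.28) and Klf6 (-2.21) were called, as was Klf2 (-2.25), which did not pass without Tom of mouse 814. Jund (-1.46), Fosl1 (-1.76) and Myc (-1.59) were lower below the fold threshold, and the phosphatase Dusp1 (-1.51) was so in the full set but not when any 1 library other than Tom of mouse 817 was left out. Fosl2 (-0.61) and Ier3 (-0.34) did not pass.

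Ctgf, Btg2 (-1.23) and Ppp1r15a (-1.0) were the genes of this list that passed as lower in Tom than in GFP. Ctgf encodes a secreted matrix-associated protein and is a known target of Yap, and it had, at chr10:24315248-24318489 on the plus strand, 44.8, 38.7 and 50.1 FPKM in Co, 4.5, 3.9 and 4.9 in Tom and 22.6, 18.9 and 12.8 in GFP. The Tom libraries were tight and below both other groups, with a change of -3.06 on the log2 scale (SE 0.22, Benjamini-Hochberg adjusted p = 2.13e-07, limma) beside a difference from GFP of -1.78 (adjusted p = 8.58e-04, limma). Cyr61, its relative, had 679, 809 and 806 FPKM in Co, 134, 225 and 433 in Tom and 154, 223 and 391 in GFP, and did not pass without Co of mouse 825 or 828 or Tom of mouse 814 or 815 (-1.69). Among the Dusp, Spry and Spred genes, feedback regulators of MAP kinases, 10 of 24 were lower and 1 was higher, with a median of -0.35. Over all genes 15.3% were lower and 15.4% higher. The 10 were 5 without Co of mouse 825 or 828, beside 10.8% and 10.1% of all genes lower. They were 4 without Tom of mouse 814, beside 11%. Of 14 Kruppel-like factors, 10 were lower and 0 higher, beside 15.3% and 15.4% of all genes, with a median of -0.99. Of the 14, 4 were called lower, beside 1.51% of all genes. Without Tom of mouse 814, 6 were lower, beside 11% of all genes. Klf9, which restrains keratinocyte proliferation, had 45.5, 47.7 and 58.2 FPKM in Co and 6.25, 6.59 and 16.1 in Tom (-2.38, adjusted p = 1.87e-04, limma), and Klf11 had 37.7, 43.3 and 44.6 and 5.02, 5.83 and 10.3 (-2.47, adjusted p = 2.04e-05, limma). Klf4, a factor of barrier formation, was lower (-1.22) but did not pass without Co of mouse 828 or Tom of mouse 814, and Klf5 had 229.7, 247 and 269 FPKM in Co and 216, 270.2 and 239 in Tom.

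Of the 19 Cdk inhibitors and quiescence genes, 12 were lower and 0 higher, beside 15.3% and 15.4% of all genes. Of the 19, 4 were called lower, beside 1.51% of all genes, and the median was -1.32. Tsc22d3, which encodes the glucocorticoid-induced leucine zipper protein, had 206, 173 and 254 FPKM in Co and 16.5, 17.5 and 42.7 in Tom (-3.11, adjusted p = 4.99e-04, limma). Zbtb16 had 19.3, 14.7 and 22.6 and 0.895, 0.515 and 3.13 FPKM (-3.1, adjusted p = 9.02e-05, limma). Both showed their highest Tom value in mouse 817, at which the lowest Co value was still more than 4 times higher. Cdkn1a, which encodes the inhibitor p21, fell from 225, 264 and 203 to 52.9, 90.4 and 85 FPKM (-1.62, adjusted p = 6.34e-05, limma) and was also lower in Tom than in GFP, which had 162, 186 and 294 (-1.47, adjusted p = 0.00363, limma). Trp53inp1 (-2.49), Sesn1 (-1.6) and Foxo1 (-1.48) were lower, while Cdkn1b had 2.9, 2.33 and 2.38 FPKM against 1.53, 2.68 and 1.87 and did not pass. The anti-proliferative genes Btg1 (-2.06) and Btg3 (-2.78, not passing without Co of mouse 825 or 828 or Tom of mouse 815), outside the list, were called lower too, and so was Ccnd2 (-2.75), a cyclin of G1, in which mouse 817 stood apart with 7.05, 11.3 and 39.5 FPKM in Tom against 116, 112 and 90.9 in Co.

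Of 35 genes of proliferation and S phase, 33 were higher and 0 lower, beside 15.4% and 15.3% of all genes. The median was 1.20, and 0 reached the fold threshold, beside 1.25% of all genes called higher. Ccnb1, the mitotic cyclin B1, had 61.6, 58.8 and 56.9 FPKM in Co and 181, 185 and 186 in Tom (1.62, adjusted p = 6.43e-06, limma). Ccne1, a cyclin of the G1 to S transition, was highest by fold at 1.97. Mki67 had 12.3, 13.4 and 13.3 FPKM in Co and 18.2, 16.8 and 25.8 in Tom and did not pass (0.58, adjusted p = 0.0194, limma), although the groups did not overlap. Of 44 histone genes, 33 were higher and 0 lower, beside the same shares of all genes, with a median of 1.33.

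In the circadian clock list all 22 genes had a fold change below 0, beside 6552 of the 12751 genes tested. Of the 22, 15 passed as lower and 0 as higher, beside 15.3% and 15.4% of all genes. The groups did not overlap for 21, beside 34.0% of all genes lower without overlap, and the median was -1.04. Rora, a nuclear receptor that activates the clock gene Arntl, had 52, 61 and 53.2 FPKM in Co and 8.78, 12.5 and 18.1 in Tom, a change of -2.05 on the log2 scale (SE 0.24, Benjamini-Hochberg adjusted p = 1.39e-05, limma). Npas2, a partner of Arntl, was called as well (-2.13), Per1 (-1.72) and Cry2 (-1.68), repressors of the clock, were lower, and so were Hlf (-2.0), which did not pass without Tom of mouse 814, and Nr1d1 (-1.61), which did not pass without Co of mouse 825 or Tom of mouse 814 or 815. Arntl itself had 22.7, 32.8 and 32.8 FPKM against 18.6, 15.6 and 23.8 and did not pass. The list counted 9 lower genes without Tom of mouse 814, beside 11% of all genes. Clock time at sorting is not given in the sources used here.

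**Figure D4:**
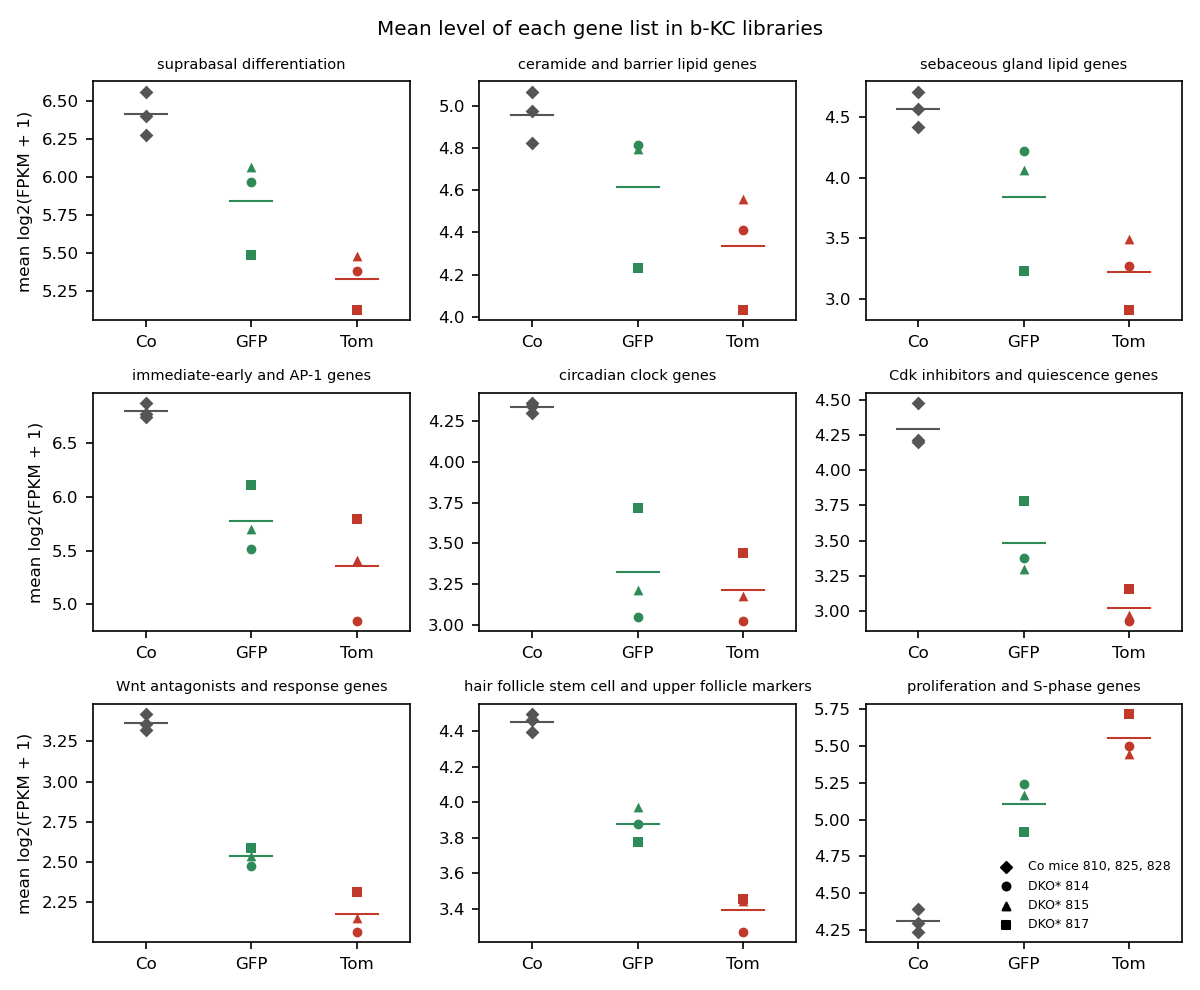
Mean log2(FPKM + 1) over each of 9 gene lists (vertical axis) in the 9 b-KC libraries, as 1 point for each mouse, with a bar at the group mean. Tom libraries lie below Co in 8 lists and above it for proliferation genes, and the order of the DKO* mice differs between lists, mouse 817 being lowest in the lipid lists and highest in the immediate-early and clock lists.

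The mice of the Tom group were not alike. Mouse 817 is also the Tom mouse with Y-linked transcripts, as mouse 810 is in Co, and the part of sex in these values was not tested. Over the 192 lowered genes, the median change from the Co mean was -2.69 in mouse 814, -2.41 in mouse 815 and -2.04 in mouse 817, and mouse 817 was nearest to Co in 134 of them. In the suprabasal and sebaceous lists mouse 817 was instead the farthest from Co. The mean log2(FPKM + 1) of the sebaceous list was 3.27, 3.49 and 2.91 in Tom, against 4.71, 4.57 and 4.42 in Co, and that of the suprabasal list was 5.38, 5.48 and 5.13 against 6.56, 6.4 and 6.28. That of the immediate-early list was 4.85, 5.41 and 5.79 against 6.74, 6.78 and 6.87. The same mice gave the GFP fraction, in which mouse 817 was likewise lowest in the sebaceous list (4.22, 4.06 and 3.23) and highest in the immediate-early list (5.51, 5.70 and 6.11).

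Of 26 heat shock and chaperone genes, 7 were lower and 5 higher, beside 15.3% and 15.4% of all genes, with 4 called lower and a median of 0.19. Hspb1, a small heat shock protein of differentiating keratinocytes, had 555, 405 and 449 FPKM in Co, 49.8, 77.1 and 98.5 in Tom and 291, 293 and 232 in GFP. The change was -2.67 from Co (adjusted p = 5.03e-07, limma) and -1.89 from GFP (adjusted p = 8.58e-04, limma), with no overlap in either comparison. Hspb8 (-2.43) and Cryab (-2.12), also small heat shock proteins, and Hspa2 (-2.28) were called lower, and Hspe1 (1.69) and Hspd1 (0.91), the chaperonins of mitochondria, were higher.

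In several families of signaling genes more members were lower than higher, beside 15.3% of all genes lower. Of 20 Wnt antagonists and response genes, 11 were lower and 0 higher, 4 were called, the median was -1.03, and 7 were lower without Co of mouse 828. Apcdd1, a Wnt inhibitor at the membrane, had 49.1, 49.1 and 57.7 FPKM in Co and 6.27, 5.92 and 8.97 in Tom, a change of -2.73 on the log2 scale (SE 0.31, Benjamini-Hochberg adjusted p = 9.70e-06, limma). Nkd2, an intracellular antagonist, had 10.2, 12.4 and 11.7 and 0.278, 0.425 and 0.376 FPKM (-3.19, adjusted p = 2.50e-08, limma), and Dkkl1, a member of the Dickkopf family, 40.1, 25.1 and 20.8 and 1.1, 1.8 and 1.12 (-3.63, adjusted p = 1.36e-05, limma). The Tom values of these genes were tight, and each Co value was more than 5 times any Tom value. Axin2, a target of Wnt signaling, had a smaller change (-0.98) that did not pass without Co of mouse 810 or 828 or Tom of mouse 814 or 815. Of 25 Wnt ligands and receptors 9 were lower and 0 higher, with a median of -0.40, and 4 to 6 were lower without any 1 library other than Tom of mouse 817.

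Of 41 BMP and TGF-beta genes, 13 were lower and 0 higher, beside 15.3% and 15.4% of all genes, with a median of -0.59. The ligands Bmp2 (-1.85), Bmp3 (-2.03) and Bmp4 (-1.82) were lower, as was the BMP target Id4, which had 21.3, 20.8 and 18.4 FPKM in Co and 1.88, 2.78 and 6.12 in Tom (-2.31, adjusted p = 1.54e-04, limma). Of 46 semaphorin, ephrin and other guidance genes, 15 were lower and 0 higher, with a median of -0.46. Sema3d, a secreted semaphorin, fell from 48.6, 76.7 and 75.6 to 2.68, 2.74 and 13.6 FPKM (-3.51, adjusted p = 5.59e-05, limma), and Efna3, an ephrin, from 94.8, 70.004 and 71.3 to 6.55, 11.5 and 22.9 (-2.59, adjusted p = 9.16e-05, limma). In both genes mouse 817 was the highest Tom mouse and still below Co. Of 18 Notch genes 5 were lower and 0 higher, among them the ligand Dll1 (-1.57) and the receptor Notch2 (-1.29), with a median of -0.53. Of 18 vitamin D and retinoid genes 6 were lower and 0 higher, with Vdr, the vitamin D receptor, at -0.98, and 3 to 4 were lower without any 1 library other than Tom of mouse 817. Of 10 Hedgehog genes 3 were lower and 0 higher, and 1 to 2 were lower without any of the same 5 libraries. With 1 library left out, the lowest counts of the Wnt ligand, vitamin D and Hedgehog lists were 4 of 25, 3 of 18 and 1 of 10, beside 10.1% to 13.5% of all genes lower. In the EGF family 4 of 13 genes were lower, among them the receptor antagonist Lrig1 (-1.41), and 4 were higher, among them the ligands Nrg1 (1.87) and Epgn (1.03). Tgfa (1.29) did not pass when any 1 library was left out, Areg (1.69) not without Co of mouse 825 or 828 or Tom of mouse 815, and Errfi1 (-1.16) not without Co of mouse 825 or 828 or Tom of mouse 814, the lower count being 2 without Tom of mouse 814 and the higher count 2 without Co of mouse 825 or 828 or Tom of mouse 815.

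Of 69 tested xenobiotic and Nrf2 genes, 32 were lower and 9 higher, beside 15.3% and 15.4% of all genes, with 8 called lower, 3 called higher and a median of -0.53. Ces1d, a carboxylesterase, had 18.5, 23.9 and 17.4 FPKM in Co and 0.624, 1.08 and 0.154 in Tom, a change of -3.72 on the log2 scale (SE 0.27, Benjamini-Hochberg adjusted p = 2.13e-07, limma). Cyp2b10, a cytochrome P450, fell from 72.8, 36.5 and 41.2 to 4.97, 7.83 and 7.53 FPKM (-2.67, adjusted p = 5.23e-06, limma), and Adh1, an alcohol dehydrogenase, from 78.1, 51.7 and 51.3 to 4.7, 5.59 and 23.3 (-2.63, adjusted p = 3.06e-04, limma). None of these groups overlapped. Raised members included Gsta4, at 28.8, 11.2 and 11.4 FPKM in Co, 312, 416 and 310.2 in Tom and 61.9, 60.003 and 37.6 in GFP (4.38, adjusted p = 5.25e-07, limma), Slc7a11 (3.18), a cystine transporter, Ugt1a7c (2.05, which passed only with all libraries or without Co of mouse 810 or Tom of mouse 817), and, below the fold threshold, the Nrf2 targets Nqo1 (1.79) and Txnrd1 (1.24). Gsta4 also exceeded GFP, by 2.7 (adjusted p = 0.00128, limma).

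In energy metabolism Pdk4, a kinase that blocks the entry of pyruvate into mitochondria, had 5.51, 8.99 and 9.86 FPKM in Co and 0.683, 0.529 and 0.454 in Tom (-2.52, adjusted p = 9.25e-07, limma). It was the most lowered of 4 lower genes in the glycolysis list, in which 15 of 25 were higher, with a median of 1.13. Over all genes 15.3% were lower and 15.4% higher. Of 78 respiratory chain genes 42 were higher and 0 lower, with a median of 0.97. This count was 10 to 20 without any 1 library other than Tom of mouse 817, the 10 without Tom of mouse 815 standing beside 10.6% of all genes. Outside the lists, Bbox1, of carnitine synthesis, had 164, 173 and 182 FPKM in Co, 15, 21.5 and 23.2 in Tom and 57.8, 72.2 and 51.9 in GFP (-3.08, adjusted p = 9.99e-08, limma). Acoxl, an acyl-CoA oxidase-like gene, was called lower too (-3.54).

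Cell junction and surface genes were lower in part. Of 41 desmosome, tight and gap junction genes 15 were lower and 4 higher, beside 15.3% and 15.4% of all genes, with a median of -0.63. Cldn1, a claudin of the epidermal tight junction, had 181, 181 and 197 FPKM in Co and 44.3, 51.9 and 44.1 in Tom (-1.97, adjusted p = 5.19e-07, limma), and Ocln, occludin, was lower by less (-1.46). Among the connexins Gjb5 (-1.2) was lower and Gja1 (1.95) and Gjb2 (3.9) were higher. Gjb2 had 12.6, 4.06 and 5.5 FPKM in Co and 167, 147 and 58.4 in Tom. The Skint genes encode butyrophilin-like proteins of keratinocytes tied to epidermal gamma-delta T cells. They were lower in 5 of 11 cases and higher in 0, beside 15.3% and 15.4% of all genes, with a median of -1.68. Skint10 had 22.1, 19 and 18.7 FPKM in Co and 3.77, 3.93 and 1.52 in Tom (-2.42, adjusted p = 1.91e-04, limma), and Skint9, which had 25.9, 25.4 and 27.6 and 3.64, 3.95 and 0 FPKM, did not pass (-3.26, adjusted p = 0.0237, limma). These copies share reads, so the split among them is uncertain.

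The chemokines Ccl27a and Cxcl14, which keratinocytes make in healthy skin, were called lower, and Cxcl2, Cxcl3 and Cxcl5 were called higher. Ccl27a had 62.8, 92.8 and 125 FPKM in Co and 11.5, 21.2 and 21.3 in Tom (-2.31, adjusted p = 9.59e-05, limma), and Cxcl14 had 33.3, 51.6 and 76.8 and 5.4, 8.72 and 27.2 (-2.11, adjusted p = 0.00131, limma). Cxcl2, a neutrophil attractant, had 0.994, 0.856 and 1.45 and 10.9, 12.9 and 14 FPKM (2.7, adjusted p = 9.99e-08, limma), Cxcl3 changed by 4.35 and Cxcl5 by 3.82. Of the 20 chemokines 4 were lower and 5 higher, beside 15.3% and 15.4% of all genes, and the 5 were 3 without Co of mouse 825 or Tom of mouse 815. Of 21 IL-1, IL-6, IL-20 and alarmin cytokines 7 were higher and 1 lower. Il33, an alarmin, was the lower one (-1.5), but not without Co of mouse 828 or Tom of mouse 814 or 815, and Il19 rose from 0.126, 0 and 0.766 to 238, 218 and 239.7 FPKM (7.53). Cd74, the invariant chain of antigen presentation, rose from 3.32, 6.07 and 6.53 to 400.3, 805 and 167 FPKM (5.95) beside the leukocyte and Langerhans cell marker sums given above, whose part was not tested.

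Among 20 basal layer and hemidesmosome genes 10 were lower without overlap, beside 34.0% of all genes, and of the 19 other than Krt14 15 were below 0 with a median of -0.54. Of the 20, 3 passed as lower, namely Igfbp3 (281, 404 and 355 FPKM in Co, 42.3, 58.2 and 115 in Tom, -2.36), Dst (-1.98) and Sostdc1 (-1.05), and Cdh3 passed as higher (1.04). Sostdc1 did not pass without Co of mouse 828 or Tom of mouse 814. Of 78 cytosolic ribosomal protein genes 4 were higher (2 without any 1 library other than Co of mouse 825) and 0 lower, and of 304 C2H2 zinc finger genes 39 were lower and 10 higher, beside 15.3% and 15.4% of all genes, with 15 to 22 lower without any 1 library other than Tom of mouse 817 and 6 higher without Tom of mouse 815. Of the 227 solute carriers 41 were lower and 40 higher, shares near the 15.3% and 15.4% of all genes, the latter 26 without Co of mouse 828 and 25 without Tom of mouse 815.

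The lowered genes were then set beside the mutant fraction and beside the Tom fraction of HF-SCs. The GFP comparison shares the Co libraries, so only values are given. The median change of the 192 genes was -2.39 in Tom and -1.72 in GFP, that of the sebaceous list -1.68 and -0.59, that of the suprabasal list -0.88 and -0.37, and that of the clock list -1.04 and -0.90. Tested directly, 11 of the 192 genes were lower in Tom than in GFP at an adjusted p-value under 0.01 (limma), beside 0.361% of all genes lower and 0.125% higher in Tom. These 192 were chosen on the Tom libraries, which favors low Tom values. The 11 include Krt77, Ctgf, Hspb1, Cryab (-1.18), Bbox1, Scel (-0.78), Susd2 (-1.17) and Tuba1a (-1.59).

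HF-SC Tom and HF-SC Co are other libraries from the same mice. Of the 192 genes, 69 passed as lower in HF-SC Tom, beside 13.9% of all genes, 2 passed as higher, beside 15.7%, and the median change was -0.91. The difference between the b-KC and the HF-SC change passed for 67 of the 192, beside 5.93% of all genes with a more negative change in b-KCs and 2.12% with a more positive one, and this share is favored by the choice of genes on the b-KC side. In 41 of the 67 the level in HF-SC Co allowed no fall as large as that in b-KCs on log2(FPKM + 1). Markers of other cells moved with the HF-SC comparison, as 18 of 18 endothelial markers (median 3.42) and 6 of 7 leukocyte markers were higher in HF-SC Tom. The endothelial markers summed to 110 to 179 FPKM in HF-SC Co and 1016 to 3017 in HF-SC Tom, 13 of their 18 differences from the b-KC change passed, and their part in the values given here was not tested. The sebaceous list had 0 of 20 genes lower in HF-SC Tom with a median of 0.16, and 4 of its 20 differences passed. Soat1, Cidea and Far2 of this list had 1.54, 2.32 and 2.38 FPKM in HF-SC Co. In these no fall as large as that in b-KCs was possible, whereas in Scd1, Krt79 and Acsbg1 it was. In HF-SC Tom 33 of the 35 proliferation genes were higher as well (median 2.40), and 17 of the 35 differences passed with the smaller rise in b-KCs. In HF-SC Tom 6 clock genes were lower and 1 was higher (median -0.58), and 1 of the 22 differences passed.

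**Figure D5:**
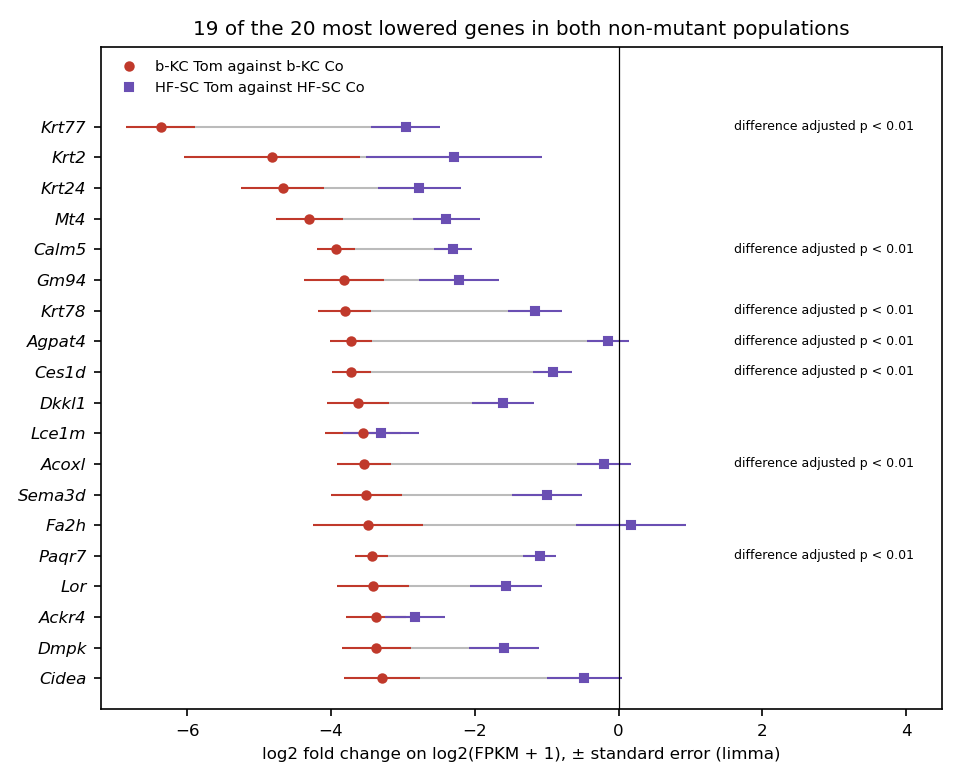
Log2 fold change with its standard error of 19 of the 20 most lowered genes in b-KC Tom against b-KC Co (circles) and in HF-SC Tom against HF-SC Co (squares), joined by a line, with the genes marked whose difference had an adjusted p-value under 0.01. Krt77 fell by 6.37 in b-KCs and by 2.96 in HF-SCs, where its level in Co allowed a fall of at most 3.63, and Lce1m and Ackr4 have overlapping error bars.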

How the data were processed

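The deposited values are FPKM for each gene and library, and the authors made them from SMART-Seq v4 and Nextera XT libraries sequenced without strand as 51-base single reads on an Illumina HiSeq. Per the labels and the study's methods, reads were checked with FastQC 0.11.0 and aligned to NCBI37/mm9 with TopHat 2.0.10 and Bowtie 1.0.0, allowing 2 mismatches and up to 20 alignments for each read, and FPKM came from Cufflinks 2.2.1. The submitters' processing notes also name GRCm38/mm10. Reads shared by near-identical copies (the Sprr2, stefin, Skint, Lce and H2 genes) were thus split between them, and overlapping or antisense genes cannot be told apart. The study's Cufflinks test needs the reads, so limma was used on the FPKM.

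A gene was kept if 3 or more of the 18 libraries had 1 FPKM or more. On log2(FPKM + 1), limma 3.58.1 in R 4.3.3 was fitted with a mean for each of the 6 groups over all 18 libraries, which share 1 estimate of the spread, with a trend in the moderated variance and Benjamini-Hochberg adjustment. Tables and figures were made with Python 3.11.15, pandas 2.3.3, numpy 2.4.6 and matplotlib 3.10.9. Read depth was estimated from the smallest steps between FPKM values of 7744 genes with a single transcript, and 78.7% to 81.5% of their low values came within 0.1 of whole reads, too few to recover counts. On simulated data 199 of 200 genes changed by a log2 fold of 3 were recovered, with 0 of 12551 unchanged genes called. The changed genes were drawn from the better expressed ones, and all libraries were simulated as independent, also those of 1 mouse. The simulation therefore does not cover calls in weakly expressed genes or near the fold threshold.

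The comparison and the gene lists were chosen with earlier results of these data known. Genes named were the 20 most lowered and the 12 most raised called genes without overlap between groups, up to 6 passing members of each list by size of change, the targeted and marker genes, and the genes next to the fold threshold. All others were named after their values were seen, and a few genes are not reported here. Promoters were taken from RefSeq on GRCm38.p6, and gene positions from GENCODE vM1 on NCBI37/mm9. Alternatives were another pseudocount, no filter, other thresholds, rescaled libraries, the 6 libraries alone, no trend, mouse as a block and each library left out. The effect on list and all-gene counts of leaving out each library, the basal lists without Krt14 and the bound on falls in HF-SCs were added after the data were seen. Mouse numbers are those of the labels. Tom and Co came from different mice, whereas the Tom and GFP libraries of mouse 814, 815 and 817 deviated together, with correlations of 0.24, 0.67 and 0.69, and share the animal.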

Additional observations from a re-analysis of the deposited data

Results flagged for a closer look

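Among the 20 most lowered genes, 7 changed by a different amount in b-KC Tom than in HF-SC Tom by a test of the difference itself (limma, Benjamini-Hochberg adjustment over all genes). The difference of the log2 fold changes, b-KC minus HF-SC, was -3.41 for Krt77 (adjusted p = 0.00267), -1.63 for Calm5 (adjusted p = 0.00712) and -2.65 for Krt78 (adjusted p = 0.00276). It was -3.58 for Agpat4 (adjusted p = 4.61e-05), -2.8 for Ces1d (adjusted p = 1.87e-04), -3.34 for Acoxl (adjusted p = 5.50e-04) and -2.34 for Paqr7 (adjusted p = 2.29e-04). In each the fall was larger in b-KCs, the population in which these genes were chosen. The mean level in HF-SC Co was 0.946 FPKM for Acoxl, 1.65 for Ces1d, 2.82 for Krt78, 4.86 for Paqr7 and 6.57 for Agpat4, 11.7 for Krt77 and 49.9 for Calm5. A fall on log2(FPKM + 1) cannot exceed the starting level on that scale, so that in HF-SCs the fall of Krt77 could not pass 3.63, and in 6 of the 7 genes, all but Calm5, no fall as large as that in b-KCs was possible. Krt77 and Calm5 passed in HF-SC Tom as well, at -2.96 and -2.3, and Agpat4 did not (-0.15, adjusted p = 0.704).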

How the results depend on the processing

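The numbers of called genes, 192 lower and 159 higher, moved most with the fold threshold and then with the scale of the fold change. With a pseudocount of 0.1 they were 451 and 305, with the ratio of group mean FPKM 461 and 297, and with a threshold of 1 in place of 2 on the log2 scale they were 992 and 881. Under no filter, the 6 libraries alone, no trend, rescaled libraries, zeros left out and an adjusted p-value under 0.05, the lower calls ranged from 185 to 203. Leaving out 1 library gave 142 (without Tom of mouse 814) to 241 (without Tom of mouse 817) lower calls and 122 to 196 higher calls, and 136 to 181 of the 192 were called in each. Lowered genes were 52.4% to 60.8% of the calls over all these settings. Rescaling moved the median of all genes to -0.06 and kept each of the 134 list counts within 1.5 times. The genes called different between Tom and GFP with the fold threshold were 11 (8 to 12 without 1 b-KC Tom library, the only ones left out here) and the called differences between b-KC and HF-SC changes 252 (226 to 266). With a pseudocount of 0.1 these were 30 and 380.

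With mouse as a random replicate block (consensus correlation 0.274), 194 genes were lower and 167 higher, all 192 and 159 among them, and 18 genes differed between Tom and GFP. Under these alternatives no named gene that passed changed direction. Of the values of single named genes under all alternatives, 5374 stayed on the same side of the threshold, 323 no longer passed and 31 newly passed, and the cause was not tested.

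Depth limits low genes, since 3 reads on 1 kb are worth 0.130 to 0.152 FPKM, and the log2(FPKM + 1) scale understates changes below about 1 FPKM. Genes listed at 0 beside values over 100 FPKM in other libraries (7 genes, among them Krt14) may be failed estimates. Il19 is also among the 7, but its 0 lay in a Co library, and its other Co values were under 1 FPKM. The intervals behind these limits cover counting error only.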

Other observations

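Of the 192 genes called lower, 110 are in no list, and most of the genes described here are among them and were chosen after their values were seen. Several act at the cell surface or outside the cell. Ackr4, a scavenging receptor for chemokines, had 32.8, 63.1 and 78.5 FPKM in Co and 3.67, 4.81 and 4.65 in Tom (-3.38, adjusted p = 1.85e-05, limma), and was lower in HF-SC Tom too (-2.83, adjusted p = 5.96e-05, limma). The ectoenzymes Ache (-3.1) and Nt5e (-2.53), the vasopressin receptor Avpr1a (-2.99), the complement inhibitors Cd59a (-2.16) and Clu (-2.09), and Pthlh, which encodes a parathyroid hormone-related peptide (-2.23), were called lower. Timp3, an inhibitor of matrix proteases, had 40.2, 47.1 and 42.5 FPKM in Co and 3.65, 4.38 and 5.17 in Tom (-3.04, adjusted p = 4.52e-07, limma). The Co and Tom values of all these genes did not overlap.

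Others act inside the cell. Gsn, which encodes the actin-severing protein gelsolin, fell from 941, 1075 and 1018 to 172, 255 and 346 FPKM (-2.02, adjusted p = 1.33e-05, limma), and Mycl, a Myc family factor, from 68.2, 64.5 and 68.4 to 8.88, 10.3 and 14 (-2.52, adjusted p = 5.25e-07, limma). The deubiquitinase Usp2 (-2.2) and the kinase Sik1 (-2.02) were called lower as well. Of 33 serpins, protease inhibitors, 8 were lower and 9 higher, beside 15.3% and 15.4% of all genes. Serpinb7 fell from 143, 172 and 159 to 13.9, 21.5 and 77.7 FPKM (-2.41) and Serpina12 was called lower (-2.98), while Serpinb3a rose most (4.73), and the 9 were 6 without Tom of mouse 815. Reads of the Serpinb3 copies cannot be told apart fully. Of 24 collagens 6 were lower and 0 higher, among them the basement membrane collagens Col4a5 (-1.78) and Col4a6 (-2.37), beside 15.3% of all genes lower. Without Co of mouse 825 or 828 or Tom of mouse 814 4 collagens were lower, and without Tom of mouse 815 3 were, beside 10.8% of all genes.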
